A study of Mus musculus with 6 samples.

Results

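The Gadd45, sestrin and cyclin G genes, together with Btg1 and Cited2, are grouped here as quiescence genes. Most are known for roles in growth arrest or the stress response. The 10 genes Gadd45a, Gadd45b, Gadd45g, Sesn1, Sesn2, Sesn3, Ccng1, Ccng2, Btg1 and Cited2 were taken as listed, with every probe set annotated to exactly 1 of them. All 10 were measured, out of 18193 genes named by at least 1 probe set, and they were read by 23 of the array's 45101 probe sets. A probe set is a group of short probes on the array that together report 1 transcript. No measured value entered the choice of probe sets, but the genes themselves were chosen with earlier results of these data known.

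The study measured transcript levels in 6 mouse neural stem cell lines, each on an Affymetrix array of its own. By their labels 3 lines are FoxO null and 3 are FoxO wild type, and the 6 are described as independent. Which FoxO genes were deleted, how, and the age and brain region of origin are not given in the sources used here. Values are the deposited MAS5 signals, on a linear scale where the trimmed mean of each array is 100, and triplets of them below follow the label numbers 1 to 3.

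FoxO factors bind DNA and activate transcription unless the kinase Akt, acting downstream of insulin and growth factors, keeps them out of the nucleus. When that signalling is low they enter the nucleus and switch on genes of cell cycle arrest, stress resistance and nutrient sensing, and in neural stem cells they are known for holding the stem cell pool in reserve. Gadd45a, Sesn1, Sesn3, Ccng2, Btg1 and Cited2 are known FoxO targets in other cells, while Ccng1 and Sesn2 are better known as p53 targets and Sesn2 also as a target of the stress factor ATF4. The comparison asks whether these genes differ between lines with and without FoxO.

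The FoxO transcripts themselves went against the labels. Of 9 probe sets for Foxo1, Foxo3 and Foxo4, 8 had a positive log2 difference (FoxO-null minus wild-type), and in 5 all 3 arrays labelled FoxO-null read above all 3 labelled wild-type. Over all probe sets the groups did not overlap, in either direction, in 12.6%. Foxo4 probe set 1456753_at read 178, 57.2 and 190 against 5.56, 4.14 and 17.1, and Foxo3 probe set 1434832_at was at 0.87 ± 0.13 (limma adjusted p 0.0882 for both). The other Foxo4 probe set was at -0.31 ± 0.41 with overlap. Foxo1, on its brightest probe set, read 77.9, 77.8 and 100.3 in the lines labelled FoxO-null and 20.3, 20.4 and 31.7 in those labelled wild-type (limma adjusted p 0.168). The position of these probes relative to a deletion was not known, and probes outside a deleted stretch would not check the labels. Group names below are therefore those of the labels, and so is every direction.

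The lines carried neural stem cell transcripts. All 10 measured of 11 listed stem and progenitor markers, among them Nes, Sox2 and Fabp7, read above the highest Bacillus subtilis control probe set of the array, taken as background, on all 6 arrays. Of 7 microglial markers 5 were not above it on any array. Cell division genes and several marker lists moved with the labels: the summed signal of 12 proliferation genes was 9253 to 10016 in the lines labelled FoxO-null against 11852 to 12224, and that of 7 oligodendrocyte genes 8061 to 8441 against 4483 to 5840. The sum of 8 astrocyte markers was 6573 to 7601 against 4550 to 5844, with 4 of 8 higher and 0 lower at an unadjusted limma p under 0.05 and a median log2 difference of 0.37. Glul, the glutamine synthetase gene, was at 0.89 ± 0.13 and the water channel gene Aqp4 at 0.94 ± 0.19 (limma adjusted p 0.0882 and 0.220). The sum of 7 fibroblast and meningeal markers, of which 2 were above background on all arrays, was 459 to 895 against 117 to 399. Most of the sum in the lines labelled FoxO-null was Thy1, which read 803, 546 and 315 against 40.1, 275 and 30.5. Thy1 was the 1 gene of that list past the unadjusted level, and 5 genes were positive and 2 negative. The sum thus mainly shows Thy1 and not the list. In bulk RNA, fewer cells of a type and less RNA per cell cannot be told apart, and the part of these shifts in the results below was not tested. The 18S rRNA 5' control read 211 on wild-type 1 and 23.5 to 38.9 on the other arrays. The X-inactivation transcript Xist read 5922 on FoxO-null 2 and 3733 and 6327 on wild-type 1 and 2. It read 35.8 and 33.1 on FoxO-null 1 and 3 and 25.5 on wild-type 3. The lines of each label were thus mixed in Xist, unequally between the labels, and its part in the results below was not tested.

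None of the 23 probe sets passed a limma adjusted p of 0.05, as was true of nearly all of the array: 1 of 45037 non-control probe sets passed (0.00222%), the one for Hes5. The smallest adjusted p among the members was 0.393. Before adjustment 4 members had a limma p under 0.05, with 2 above and 2 below the wild-type level: single probe sets of Gadd45b and Sesn3 were higher, and single probe sets of Ccng1 and Cited2 lower. These 4 are 17.4% of the 23. Of probe sets above background on all 6 arrays 10.4% reached that level, and of the 21 such members 19%. Over all probe sets 7.24% reached that level, 3.9% higher and 3.33% lower. Of those 3259 probe sets 53.9% were higher. With the arrays centred on their medians 2847 probe sets reached that level, and 36.6% of these were higher. The member count was 2 without FoxO-null 2 and 0 without the intensity trend of the limma fit, which lets the expected spread vary with signal. The groups did not overlap in 3 of 23 member probe sets (13.0%), close to the 12.6% of all probe sets. With only probe sets above background on all 6 arrays the shares were 14.3% and 16.4%. The two-sided exact permutation p of each of these 3 was 0.1, the smallest that 3 lines against 3 allow.

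The differences were small in size. No filter on low signals was applied, and 21 of 23 probe sets read above background on all 6 arrays. The largest among the 23 was 0.53 on the log2 scale, and none reached 2-fold. With 1 probe set a gene, that of highest mean signal, the 95% limma interval lay within a 2-fold change in either direction for all 10 genes, and over all probe sets it did so for 20 of 23. For Gadd45b this was by a narrow margin, with an upper limit of 0.996 on the log2 scale. With an offset of 1 added to the signal in place of 5.94 the upper limits of Gadd45a and Gadd45b were past 2-fold, and 8 of 10 genes and 17 of 23 probe sets stayed within it. With 1 array left out 8 or 9 of 10 genes were within it, and the exceptions were again Gadd45a or Gadd45b. Intervals this wide leave room for changes under 2-fold. The median log2 difference of the 10 genes was -0.026, against 0.026 for all 18193 genes, with 4 genes positive and 6 negative. Spread among lines of 1 group was as large as the difference between groups nearly everywhere: in 21 of 23 probe sets the log2 range within at least 1 group exceeded the difference between the groups, as it did in 93.6% of all probe sets.

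**Figure D1:**
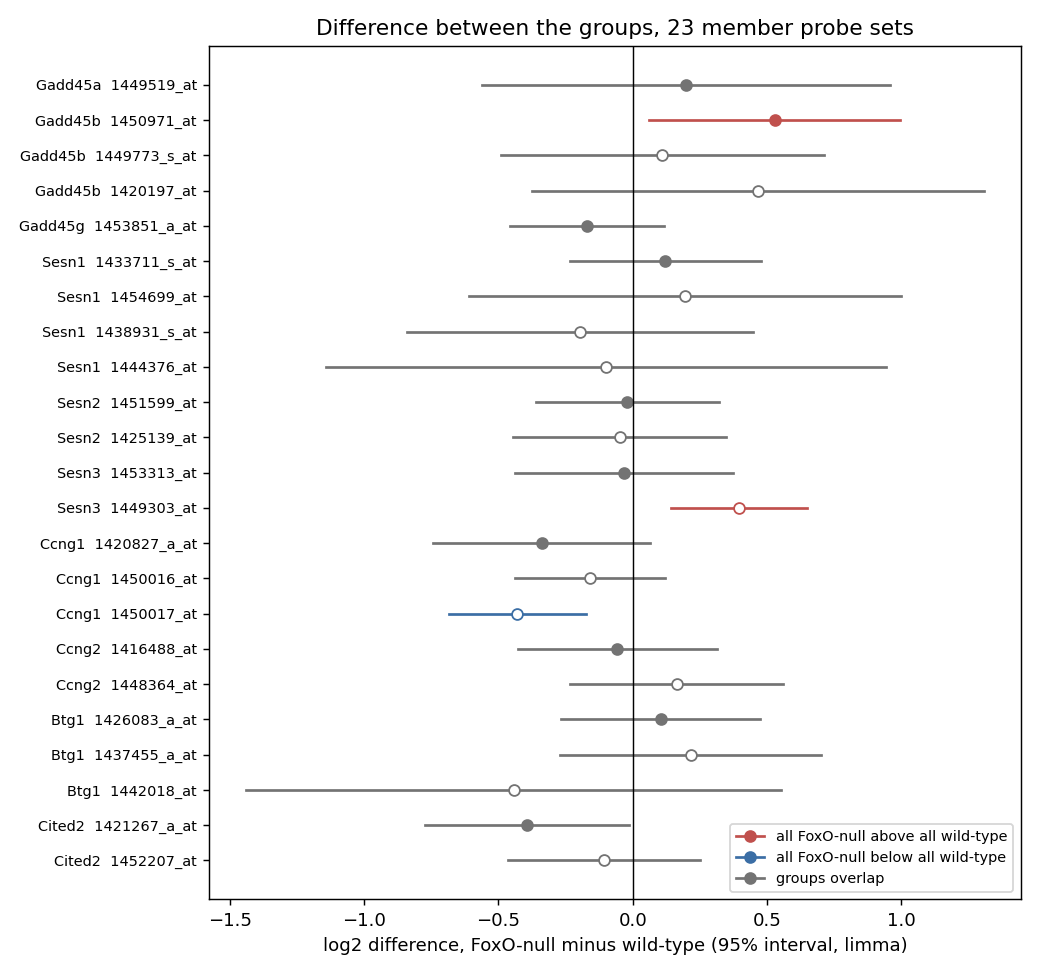
Log2 difference (FoxO-null minus wild-type, x axis) with its 95% limma interval for each of the 23 probe sets (y axis). Filled points mark the probe set of highest mean signal of each gene. Red and blue mark the 3 probe sets whose groups do not overlap, for Gadd45b, Sesn3 and Ccng1, and no difference is larger than 0.53.

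The promoters were searched for words that FoxO and the stress factors ATF4 and HIF bind. In the 250 bases before the gene start, taken from RefSeq on GRCm38.p6, all 10 genes matched with 11 windows in all, Sesn1 having 2. The words searched on both strands were GTAAACA for FoxO, TGATGNAA for ATF4 and ACGTG, the core of the hypoxia response element. The FoxO word was in 1 of 11 windows, that of Btg1, against 3.17% of all 32851 windows. The ATF4 word was in 1, that of Gadd45g, against 3.45%, and the hypoxia word in 3, those of Gadd45b, Gadd45g and Cited2, against 16.6%. In each of these 3 the hypoxia word lay on both strands at once, as the overlapping palindrome CACGTG. A match is a description of the letters and says nothing of binding, and a window without one says only that these letters are not in it. The windows of Btg1, which alone holds the FoxO word, and of the 3 genes with a probe set whose groups did not overlap are shown 5′ to 3′, with any searched word in capitals.
Btg1, chr10:96616751-96617000 on the + strand: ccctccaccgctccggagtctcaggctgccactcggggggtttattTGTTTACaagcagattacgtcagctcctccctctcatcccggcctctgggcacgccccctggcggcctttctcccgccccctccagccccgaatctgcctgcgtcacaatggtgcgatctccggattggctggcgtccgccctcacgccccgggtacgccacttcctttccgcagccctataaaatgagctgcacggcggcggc
Gadd45b, chr10:80929841-80930090 on the + strand: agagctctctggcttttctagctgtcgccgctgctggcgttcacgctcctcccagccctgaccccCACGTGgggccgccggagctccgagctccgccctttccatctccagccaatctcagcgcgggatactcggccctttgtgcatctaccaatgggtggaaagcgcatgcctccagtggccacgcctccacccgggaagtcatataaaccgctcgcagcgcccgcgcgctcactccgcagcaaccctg
Sesn3, chr9:14276051-14276300 on the + strand: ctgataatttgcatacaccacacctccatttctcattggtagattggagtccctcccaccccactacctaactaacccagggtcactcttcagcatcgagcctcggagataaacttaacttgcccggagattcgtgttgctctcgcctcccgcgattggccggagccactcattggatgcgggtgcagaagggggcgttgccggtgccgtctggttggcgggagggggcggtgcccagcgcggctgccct
Ccng1, chr11:40755287-40755536 on the - strand: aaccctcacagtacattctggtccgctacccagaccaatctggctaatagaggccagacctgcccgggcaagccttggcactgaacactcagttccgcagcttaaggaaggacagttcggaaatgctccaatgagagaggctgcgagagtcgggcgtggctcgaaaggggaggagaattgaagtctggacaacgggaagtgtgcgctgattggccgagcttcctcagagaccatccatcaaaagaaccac
The capitals in the Btg1 window are the FoxO word on the opposite strand, starting 204 bases before the gene start. Those in the Gadd45b window are the palindrome that holds the hypoxia word, starting 185 bases before the start. The Sesn3 and Ccng1 windows held none of the words.

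The Gadd45 proteins are small stress sensors that bind the kinase MEKK4, the replication clamp PCNA and the mitotic kinase Cdk1. Gadd45b was the member with the largest difference. Its probe set of highest signal, 1450971_at, read 115, 125 and 135 in the lines labelled FoxO-null and 60.1, 108 and 93.0 in those labelled wild-type. All 3 lines labelled FoxO-null thus lay above all 3 labelled wild-type, but wild-type 2 was close below the lowest of them. The log2 difference was 0.53 ± 0.22 (standard error of the fit; means 125 ± 9.87 and 87.0 ± 24.5, SD, n = 3; limma unadjusted p 0.0300, adjusted p 0.638). It rested in large part on wild-type 1: without that array it was 0.30 (unadjusted limma p 0.141).

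The other Gadd45b probe sets pointed the same way with overlapping groups. Probe set 1420197_at read 24.6, 42.1 and 71.7 against 26.0, 26.5 and 35.9, so that FoxO-null 3 was high and FoxO-null 1 was the lowest of all 6 (0.47 ± 0.39, limma adjusted p 0.852). Probe set 1449773_s_at read 68.6, 60.7 and 127 against 58.3, 87.0 and 82.0, again high on FoxO-null 3 alone (0.11 ± 0.28, limma adjusted p 0.965). The mean of the 3 probe sets differed by 0.37 ± 0.24 (limma adjusted p 0.744).

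Gadd45a, the member of the family most often named as a FoxO target, read 26.6, 61.6 and 44.5 in the lines labelled FoxO-null and 32.1, 31.9 and 45.0 in those labelled wild-type. The lowest and the highest of the 6 were both lines labelled FoxO-null, and the difference was 0.20 ± 0.35 (limma adjusted p 0.942). Without FoxO-null 2 it was -0.047. Gadd45g, which neural progenitors switch on as they leave the cell cycle, was nearly level over the lines at 226, 212 and 200.4 against 222, 268 and 232. Its highest signal was 1.34 times its lowest, and the groups differed by -0.17 ± 0.13 (limma adjusted p 0.837).

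**Figure D2:**
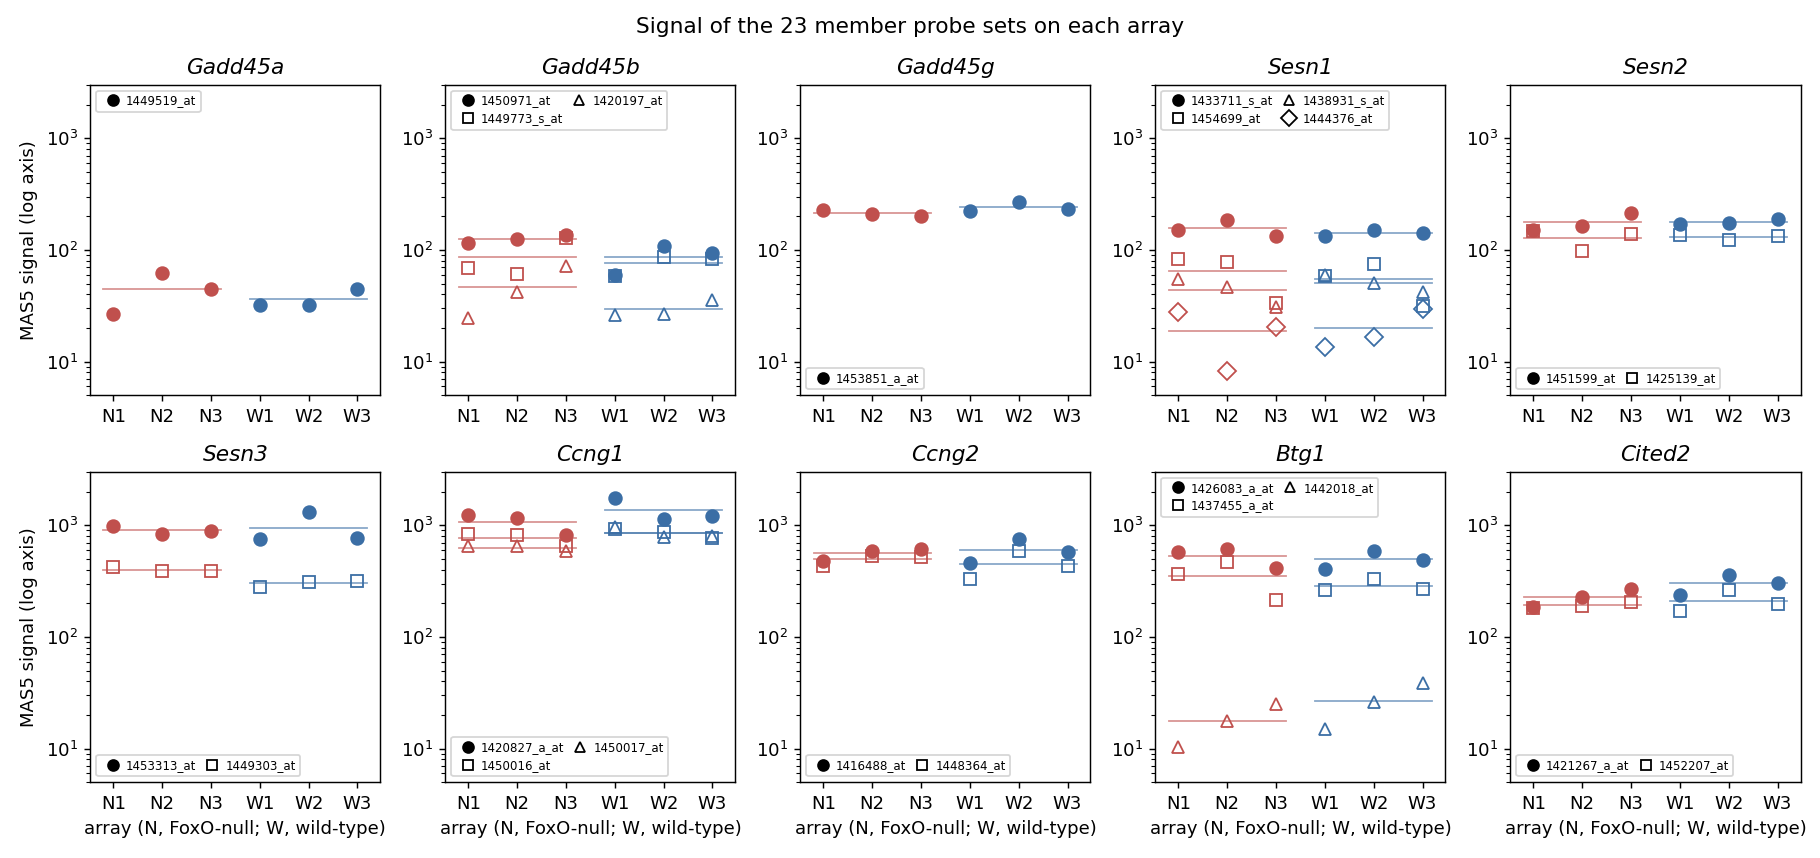
MAS5 signal (log axis) of every member probe set on each of the 6 arrays (N, lines labelled FoxO-null, red; W, lines labelled wild-type, blue), 1 panel a gene. Filled symbols are the probe set of highest mean signal, open symbols the others, and lines the group means; Sesn3 probe set 1449303_at and Ccng1 probe set 1450017_at are the tightest examples of groups that do not overlap.

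Sestrins restrain the growth kinase complex mTORC1: they bind the GATOR2 complex when leucine is low, activate AMPK and limit oxidative stress. Sesn3, the sestrin most often tied to FoxO, gave a split answer. Its dimmer probe set 1449303_at read 423, 392 and 387 in the lines labelled FoxO-null and 281, 310.4 and 318 in those labelled wild-type. The groups were clearly apart on this probe set, and the gap between them was wider than the range within either. The difference was 0.40 ± 0.12, a 1.32-fold higher signal in the lines labelled FoxO-null (means 401 ± 19.5 and 303 ± 19.8, SD, n = 3; unadjusted limma p 0.00496, adjusted p 0.432). It lay between 0.34 and 0.43 whichever array was left out.

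The brighter Sesn3 probe set 1453313_at did not follow. It read 982, 829.9 and 889 against 759, 1327 and 769, with wild-type 2 far above every other line and the other wild-type lines below all 3 labelled FoxO-null. The difference was -0.032 ± 0.19 (limma adjusted p 0.987) and 0.23 without wild-type 2. Across the 6 arrays the correlation of the 2 Sesn3 probe sets was 0.071, a description of 6 points from arrays they share. The log2 ratio of the dimmer to the brighter probe set was -1.20, -1.07 and -1.19 in the lines labelled FoxO-null and -1.41, -2.07 and -1.26 in those labelled wild-type. These ratios did not overlap, with a two-sided exact permutation p of 0.1, the smallest possible, and 0.475 after Benjamini-Hochberg adjustment over 19 pairs of probe sets of the same gene. This was not particular to Sesn3: of the 19 pairs 3 others, 1 each of Ccng1, Ccng2 and Cited2, had the same exact p and adjusted value. The mean of both probe sets differed by 0.18 ± 0.13 (limma adjusted p 0.775).

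Sesn1 and Sesn2 did not separate the groups on any probe set. Sesn2 probe set 1451599_at read 152, 165 and 214 against 172, 173 and 188, and its difference of -0.020 ± 0.16 had a 95% limma interval from -0.36 to 0.32 (adjusted p 0.991). Its other probe set read 147, 97.1 and 139 against 137, 121 and 133 (-0.049 ± 0.18). The wild-type lines were within a narrow band on both, and the lines labelled FoxO-null spread to either side of it.

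The brightest Sesn1 probe set, 1433711_s_at, read 150.1, 186 and 132 against 133, 151 and 142, a difference of 0.12 ± 0.16 (limma adjusted p 0.919). Probe set 1454699_at varied more among lines than between groups: it was 83.4 and 77.4 on FoxO-null 1 and 2 but 33.5 on FoxO-null 3, and 58.9 and 75.5 on wild-type 1 and 2 but 31.2 on wild-type 3. The low lines were thus 1 from each group. Probe set 1438931_s_at had its lowest signals, 31.0 and 42.1, on the same FoxO-null 3 and wild-type 3, and its difference was -0.19 ± 0.30. The faintest, 1444376_at, read 8.29 to 29.5 and was above background on 1 FoxO-null and 2 wild-type arrays, so it carries little information.

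Cyclins G1 and G2 are unlike the cyclins that drive division: both bind PP2A phosphatase, Ccng1 is a p53 target that feeds back on p53 through Mdm2, and Ccng2 is induced in resting cells and is a standard FoxO readout. Ccng1 had the lower mean in the lines labelled FoxO-null on all 3 of its probe sets, with groups that did not overlap on 1. That probe set, 1450017_at, read 650.4, 648 and 589 in the lines labelled FoxO-null and 965, 792 and 799 in those labelled wild-type. The lowest wild-type line was well above the highest line labelled FoxO-null, and wild-type 1 was highest. The difference was -0.43 ± 0.12, a 1.35-fold higher signal in the lines labelled wild-type (means 629 ± 34.8 and 852 ± 97.6, SD, n = 3; unadjusted limma p 0.00320, adjusted p 0.393). It was the smallest p of the 23 and stood 366th of 45037 in the array.

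The other Ccng1 probe sets overlapped. The brightest, 1420827_a_at, read 1235, 1163 and 826 against 1771, 1136 and 1198, with wild-type 1 alone high and FoxO-null 3 alone low (-0.34 ± 0.19, limma adjusted p 0.756, or -0.14 without wild-type 1). Probe set 1450016_at read 827, 814 and 650.0 against 922, 864 and 766 (-0.16 ± 0.13, limma adjusted p 0.845). The 3 probe sets correlated with one another at 0.73 or more over the 6 arrays, and their mean differed by -0.31 ± 0.14 (unadjusted limma p 0.0492, adjusted p 0.603). Proliferation genes, given above, were lower in the same lines.

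Of 12664 genes above the low-signal filter, the 5 whose pattern over the 6 arrays was most like Ccng1 probe set 1450017_at were Rangrf, Pcolce2, Polr2d, Eri2 and Polr3e, with Pearson correlations from 0.991 down to 0.986. As many as 61 genes exceeded 0.95, since 6 points allow many close matches, and no test was made. Being chosen for this pattern, all 5 were lower in the lines labelled FoxO-null. Pcolce2 was not above background on any array labelled FoxO-null.

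Ccng2 did not differ detectably between the groups. Probe set 1416488_at read 483, 593 and 618 in the lines labelled FoxO-null and 455, 756 and 580.3 in those labelled wild-type. Wild-type lines were both the lowest and the highest of the 6, and the lines labelled FoxO-null lay between them. The difference was -0.057 ± 0.17, with a 95% limma interval from -0.43 to 0.31 (adjusted p 0.971). Probe set 1448364_at showed the same order of wild-type lines at 431, 530.4 and 522 against 328, 592 and 435 (0.16 ± 0.18, limma adjusted p 0.900). The probe sets correlated at 0.90 over the 6 arrays, so the difference among wild-type lines was seen by both.

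Btg1, an antiproliferative protein that recruits the CCR4-NOT deadenylase to shorten messenger RNA tails, is the gene whose promoter window above holds the FoxO word. Its brightest probe set, 1426083_a_at, read 573, 617 and 413 against 405, 591 and 489, with overlapping groups and a difference of 0.10 ± 0.17 (limma adjusted p 0.936). Probe set 1437455_a_at read 368, 467 and 216 against 265, 331 and 269 (0.22 ± 0.22, limma adjusted p 0.893), again lowest on FoxO-null 3. Without that array the 2 differences were 0.28 and 0.52. The third, 1442018_at, was not above background on any FoxO-null array, at 10.4, 17.6 and 25.2, and was above it on 3 wild-type arrays, at 15.0, 26.2 and 38.7. Against the background level its wild-type signal was at least 1.02-fold higher, which is no measurable gap, and the backgrounds themselves were 19.2, 27.6 and 26.9 on the FoxO-null arrays and 14.4, 15.8 and 19.1 on the wild-type ones.

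Cited2 binds the coactivators CBP and p300 and takes them from HIF1, which dampens the hypoxia response. Probe set 1421267_a_at read 186, 227 and 269 in the lines labelled FoxO-null and 238, 361 and 307 in those labelled wild-type. The groups overlapped because wild-type 1 lay below FoxO-null 3. The difference was -0.39 ± 0.17 (means 227 ± 41.3 and 302 ± 61.5, SD, n = 3; unadjusted limma p 0.0428, adjusted p 0.672), and it was -0.26 without wild-type 2 or without FoxO-null 1. Probe set 1452207_at read 182, 191 and 207 against 172, 265 and 198, with only wild-type 2 apart from the rest (-0.11 ± 0.16, limma adjusted p 0.930).

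Single lines stood out across several of these genes. With 1 probe set a gene, wild-type 1 was below the mean of the 6 lines in 9 of 10 genes, with a median deviation of -0.19 on the log2 scale, and Ccng1 was the exception. Wild-type 2 was above it in 7 of 10, with a median of 0.14, and was the highest line for Gadd45g, Sesn3, Ccng2 and Cited2. The other 4 arrays had medians from 0.0078 to 0.013. No such count was made over all genes, and wild-type 1 had the lowest array median signal, 25.5 against up to 32.8. Whether these deviations are particular to the members was not tested. On the log2 scale wild-type 2 minus wild-type 1 was 0.73 for Ccng2, 0.80 for Sesn3, 0.79 for Gadd45b, 0.59 for Cited2, 0.54 for Btg1 and -0.64 for Ccng1. Each of these 6 is larger in size than the group difference of the same probe set. It was also larger for Gadd45g (0.27 against -0.17) and Sesn1 (0.17 against 0.12). For Gadd45a (-0.0065 against 0.20) and Sesn2 (0.0089 against -0.020) it was smaller. These lines were picked as the extremes of these same values, and the share over all genes was not computed. Wild-type 1 also had the outlying 18S rRNA control signal, and its part in these deviations was not tested.

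**Figure D3:**
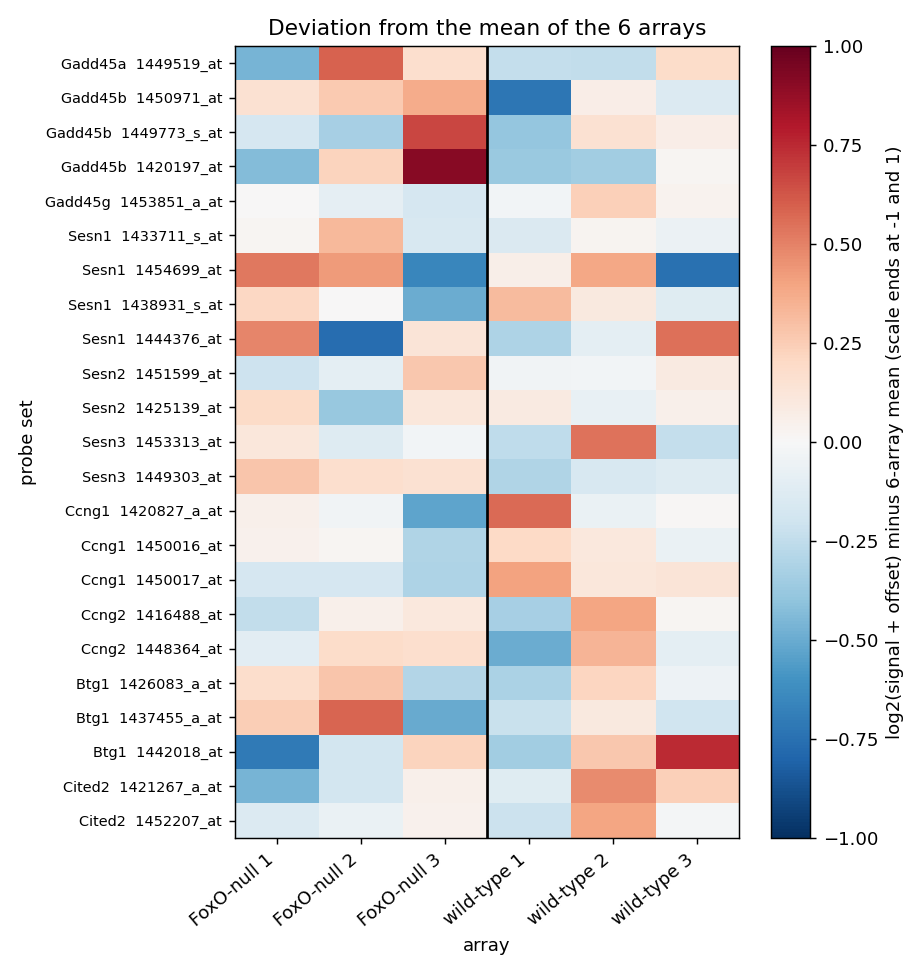
Deviation of the log2 signal from the mean of the 6 arrays (colour) for each member probe set (rows) on each array (columns; the line parts FoxO-null from wild-type). Wild-type 1 is mostly blue apart from Ccng1 and some Sesn1 and Sesn2 probe sets, and wild-type 2 is mostly red, although both carry the same label.

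The partners of these proteins were read from lists of related genes, with 1 probe set a gene, and no gene in any of these lists passed an adjusted limma p of 0.05. Over all genes 8.73% had an unadjusted p under 0.05, and 14.4% had groups that did not overlap. Of 17 measured GADD45 partners, 3 were lower and 0 higher at an unadjusted limma p under 0.05, and the list's median was -0.20. The 3 were the chromatin factor gene Ing1 at -0.41 ± 0.12, the Cdk inhibitor gene Cdkn1a at -0.32 ± 0.12 and Pcna at -0.30 ± 0.13. Cdkn1a, which arrests the cycle and is a target of both p53 and FoxO, read 1657, 1871 and 1809 against 2358, 2005 and 2304, with no overlap (limma adjusted p 0.593). Pcna is also a replication gene, and the measured genes of the list include the mitotic kinase gene Cdk1, so it shares content with proliferation genes.

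In the sestrin axis 3 of 27 genes were lower and 0 higher at an unadjusted limma p under 0.05, with a list median of -0.057. Stk11, the kinase LKB1 that activates AMPK, was the clearest: it read 148, 152 and 154 in the lines labelled FoxO-null and 231, 222 and 212 in those labelled wild-type, with no overlap and little spread in either group (-0.53 ± 0.13, unadjusted limma p 0.00155, adjusted p 0.331). Sec13, a GATOR2 subunit, was at -0.32 ± 0.11, and Srxn1, the sulfiredoxin that works beside sestrins against peroxide, at -0.40 ± 0.15.

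Among 16 cyclin G partners 2 were higher and 1 lower at that level, with a median of -0.039. The PP2A regulatory subunit gene Ppp2r5a was at 0.36 ± 0.13 and the scaffold subunit gene Ppp2r1b at -0.39 ± 0.14, both without overlap, while Ccni, a relative of the G cyclins, was at 0.33 ± 0.14 with overlap. Among 16 genes of the BTG and TOB proteins and the CCR4-NOT complex, the deadenylase gene Cnot6 was at -0.39 ± 0.12 and the antiproliferative gene Tob1 at 0.46 ± 0.20, 1 lower and 1 higher, and Cnot3 was at -0.28 ± 0.16 (limma adjusted p 0.485, 0.661 and 0.770); the median was -0.11.

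In the list around Cited2, 2 of 17 genes were higher and 0 lower, with a median of 0.048. Lhx2, a forebrain factor gene whose protein works with Cited2, was at 0.68 ± 0.21 without overlap, and the HIF target gene Vegfa read 1367, 1568 and 1441 against 683, 1478 and 1008, where wild-type 1 was again low and wild-type 2 lay inside the other group (0.53 ± 0.21, limma adjusted p 0.625). Smad2 was at -0.30 ± 0.15. Of 16 measured genes in the stress and arrest list, 1 was higher and 2 lower, with a median of -0.0073. The list also holds the D cyclin genes Ccnd1 and Ccnd2, which drive division and are not arrest genes. Plk2, a p53 target and centriole kinase gene, was at -0.90 ± 0.18 (limma adjusted p 0.209), the cyclin D1 gene Ccnd1 at -0.63 ± 0.16 (0.341) and the mTORC1 inhibitor gene Ddit4 at 0.56 ± 0.18 (0.492). Of 12 proliferation genes 9 were lower at an unadjusted limma p under 0.05 and all 12 were negative, with a median of -0.30. Mcm5 was at -0.55 ± 0.12, Plk1 at -0.45 ± 0.12 and Bub1 at -0.59 ± 0.17. Tyms, above background on only 1 array labelled FoxO-null, was at -0.21 ± 0.46, so its sign carries little information.

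**Figure D4:**
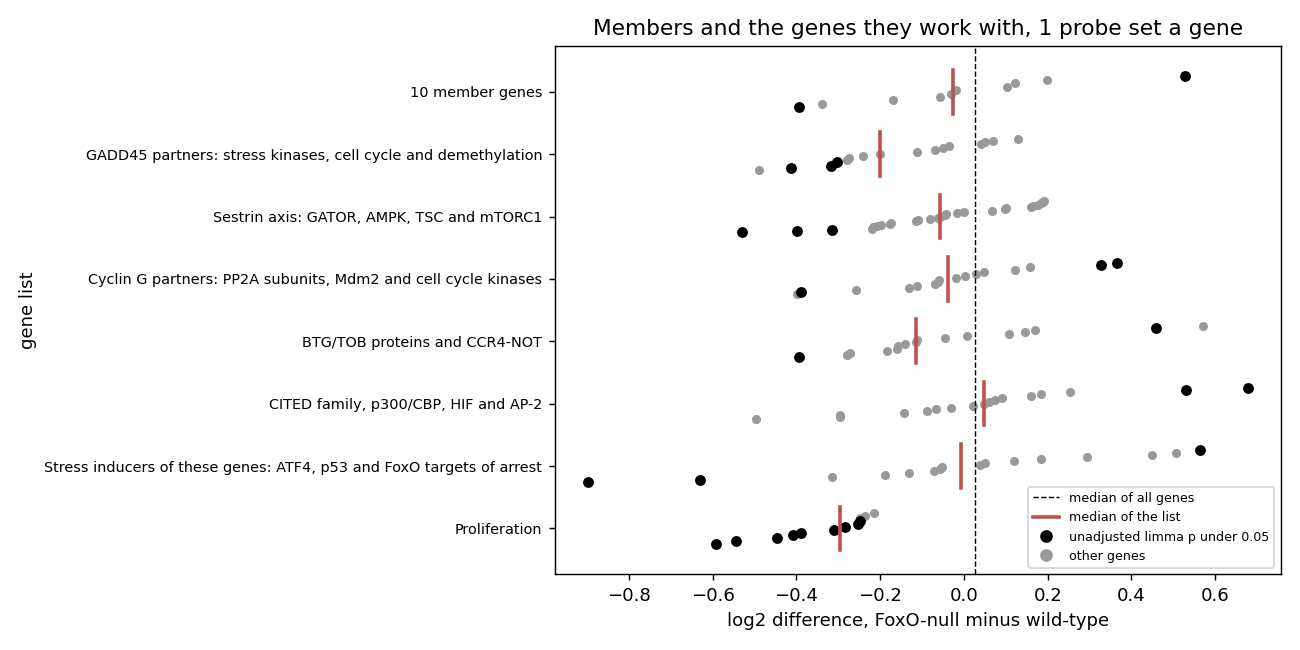
Log2 difference (FoxO-null minus wild-type, x axis) of each gene (points; black, unadjusted limma p under 0.05) in the 10 members and the lists around them, with each list's median (red) and the median of all genes (dashed, 0.026). The members' median of -0.026 lies by the median of all genes, and of the lists drawn here the proliferation list's, -0.30, lies furthest from it; the FoxO genes and the cell type markers are not drawn.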

How the data were processed

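The authors deposited intensity values from MAS5, as the submitters' processing notes name it, for 6 arrays of 1 line each. The labels' protocols give 6 ug of total RNA per sample. The MAS5 version and further steps are not given in the sources used here. Array medians were 25.5 to 32.8 and the deposited scaling was kept; all value columns were used. Of 45037 non-control probe sets the platform annotation gave 1 gene to 34945, several to 932 and none to 9160.

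The scale of the tests was log2(signal + 5.94), with the 20th percentile of all values as offset, which understates changes of dim genes. All 45037 were fitted without a filter in limma 3.58.1 under R 4.3.3 (lmFit, then eBayes with a trend over intensity), two-sided, with Benjamini-Hochberg adjustment and a threshold of 0.05. Lists used the probe set of highest mean a gene. Each array's background was the brightest of its 27 Bacillus subtilis controls. For the likeness search genes under the 40th percentile of mean signal were left out. The fit was tested on simulated data for this comparison with 45037 probe sets: it recovered 22.1% of those changed 2-fold and 60.5% of those changed 4-fold. In each simulation 200 of the 45037 probe sets were changed. Changes were placed only in probe sets at or above the 40th percentile of mean signal, with independent normal noise. The rates therefore do not cover dimmer probe sets, and they hold for that number of changed probe sets only. Same-numbered arrays deviated together at correlations of 0.014, 0.064 and 0.10 over 27022 probe sets, so the numbers were not used as pairs. Alternatives were other offsets, scalings, filters and units of the fit, no trend, a replicate block and leaving out each array.

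The members and lists were chosen with earlier results of these data known. Named genes were the members, the FoxO genes, up to 3 of smallest p of each list and the 5 most like the member of smallest p. Hes5, Glul, Aqp4, Thy1 and Xist were named after their values were seen. p-values measure the spread between lines, which the labels call independent. The number of arrays limits the precision.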

Additional observations from a re-analysis of the deposited data

How the results depend on the processing

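No member probe set passed an adjusted limma p of 0.05 under any alternative; the smallest over 319 values of 23 probe sets was 0.334. The direction held in 294 of these and turned in 25, in probe sets of small difference, 22 of them on leaving out 1 array. With 1 array left out the ranges were -0.24 to 0.13 and -0.043 to 0.38 for the Ccng2 probe sets 1416488_at and 1448364_at, -0.16 to 0.078 and -0.16 to 0.13 for Sesn2 1451599_at and 1425139_at, and -0.0084 to 0.23, -0.13 to 0.57, -0.35 to 0.0071 and -0.37 to 0.26 for Sesn1 1433711_s_at, 1454699_at, 1438931_s_at and 1444376_at. They were -0.030 to 0.28 and -0.023 to 0.52 for Btg1 1426083_a_at and 1437455_a_at, -0.047 to 0.48 for Gadd45a, -0.20 to 0.30 for Gadd45b 1449773_s_at, -0.24 to 0.062 for Cited2 1452207_at and -0.17 to 0.23 for Sesn3 1453313_at. With the mean of a gene's probe sets, chosen after seeing the data, Ccng2 was at 0.053, Btg1 at -0.041 and Sesn3 at 0.18, opposite in sign to the brightest probe set. 

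The 4 members at an unadjusted p under 0.05 were 2 with 1 probe set a gene after the low-signal filter, which leaves fewer probe sets, 0 without the intensity trend and 2 to 5 with 1 array left out. List genes at that level numbered 16, or 5 without the trend, and 12 to 19 with 1 array left out. Over the whole array the count past the adjusted threshold was 1, and it was 0 with an offset of 16, with median centring, without the trend and with the replicate block, 5 with 1 probe set a gene after the filter, where 1292 had an unadjusted p under 0.05 against 3259, and 0 to 1 with 1 array left out, where Hes5 had an adjusted limma p of 0.0557 to 0.427. The cause was not tested. With the replicate number as a block the unadjusted member count was 5 and no member call changed. Signals near background, as in Btg1 1442018_at and Sesn1 1444376_at, limit what can be seen.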
